A study of Mus musculus with 4 samples.

Results

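The Bcl2 family genes Bcl2, Bcl2l1, Mcl1, Bax, Bak1, Bid, Bad, Bcl2l11, Bmf and Bnip3 were followed in 4 mouse melanocyte lines. The members were these 10 genes by name, and every probe set that the platform annotation lists with 1 of them and with no other gene was taken. Of the 10 genes, 9 were measured, by 31 of the 45037 probe sets, and the table covers 18193 genes in all. Bax was not analysed here, as the annotation used lists no probe set with it alone. Lines 9v, 10d, 13d and 14d were established in culture from the skin of C57BL/6J pups aged 3 days, and RNA of each line was hybridised to 1 Affymetrix array. All were immortalized, and fibroblasts had been selected against with G418. Cultures were harvested at 80% confluency. Their medium held TPA at 200 nM, a phorbol ester that mouse melanocytes need in culture. In bcat* mice, a stable and transcriptionally active mutant of β-catenin is expressed in the melanocyte lineage. By the sample labels, 10d (male) and 13d (female) are bcat* lines and 9v (male) and 14d (female) are wild-type (WT) lines. The article gives 13d as WT and 14d as bcat*, and its Methods describe the mice of origin as male. Values are therefore given by line name, and each genotype comparison was made under both readings. The article describes the lines of a genotype as independent and as derived from independent pups. The labels do not say whether these came from separate litters, and each line has 1 array, so that p-values measure only the spread between these arrays.

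Proteins of the Bcl2 family decide at the outer mitochondrial membrane whether a cell enters apoptosis. Bax and Bak1 form the pores through which cytochrome c leaves, Bcl2, Bcl2l1 (Bcl-xL) and Mcl1 hold them in check, and BH3-only proteins such as Bid, Bad, Bcl2l11 (Bim) and Bmf relay stress signals by binding to either. In melanocytes Bcl2 is a known target of the transcription factor Mitf, and mice without Bcl2 turn grey as their melanocytes are lost.

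RNA integrity numbers ranged from 9.7 to 9.9. The authors deposited GCRMA intensities, which are background-corrected and normalized between arrays. They were whole numbers from 2 upwards, on what the values show to be a linear scale, and 35.8% to 36.1% of probe sets reached 32 in a line. An intensity of 32 was used as the detection level, and 9415 genes reached it in at least 1 line. All 8 melanocyte markers (Tyr, Tyrp1, Dct, Pmel, Mlana, Mitf, Sox10 and Kit) were detected, and none differed by 2-fold between any lines. Their summed intensity ranged from 262266 to 279333. Of markers of other cells, 1 of 7 fibroblast, 2 of 7 keratinocyte, 1 of 2 Schwann cell, 1 of 4 leukocyte and 0 of 3 endothelial genes were detected, with summed intensities of 71 to 232, 155 to 461, 12 to 3843, 220 to 9600 and 20 to 28. Col3a1, Dcn, Krt5, Krt14, Ptprc and Pecam1 lay at 11 or lower in every line, and Col1a1 read 20 to 23 and Kdr 9 to 17, whereas Krt10 was detected in every line at 106 to 268. Line 14d stood out by Lyz2 (9580), line 13d by S100b (3836) and Cdh1 (272), and line 9v by Col1a2 (175). Single readings of this kind do not show which cells were present, and the part of these genes in the results was not tested.

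The promoter windows of Bnip3, Bid, Bcl2l11 and Bcl2 are shown because these members had the largest differences between lines 9v and 10d. Each window runs from 250 bases before to 50 bases after an annotated gene start, is written 5′ to 3′ on the strand of the gene, and comes from RefSeq on GRCm38.p6. Capitals mark matches to 5 motifs, searched on both strands: ACGTG, the core of the hypoxia response element, CACGTG, an E-box, CATGTG, another E-box, bound by Mitf in its M-box form, CTTTGA, the core of the Tcf/Lef site, and GTAAACA, a Foxo site.
Bnip3, chr7:138909457-138909756, minus strand: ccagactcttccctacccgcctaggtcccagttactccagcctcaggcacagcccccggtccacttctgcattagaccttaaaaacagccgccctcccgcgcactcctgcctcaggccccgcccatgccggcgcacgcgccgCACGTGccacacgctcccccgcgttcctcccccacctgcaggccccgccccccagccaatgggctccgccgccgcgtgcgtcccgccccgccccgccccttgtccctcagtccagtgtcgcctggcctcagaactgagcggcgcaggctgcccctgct
Bid, chr6:120916775-120917074, minus strand: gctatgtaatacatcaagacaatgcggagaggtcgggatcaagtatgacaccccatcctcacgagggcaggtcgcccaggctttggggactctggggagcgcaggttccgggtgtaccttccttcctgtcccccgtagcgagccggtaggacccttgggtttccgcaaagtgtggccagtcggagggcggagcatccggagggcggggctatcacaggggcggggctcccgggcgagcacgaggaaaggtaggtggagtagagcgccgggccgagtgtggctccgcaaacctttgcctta
Bcl2l11, chr2:128125788-128126087, plus strand: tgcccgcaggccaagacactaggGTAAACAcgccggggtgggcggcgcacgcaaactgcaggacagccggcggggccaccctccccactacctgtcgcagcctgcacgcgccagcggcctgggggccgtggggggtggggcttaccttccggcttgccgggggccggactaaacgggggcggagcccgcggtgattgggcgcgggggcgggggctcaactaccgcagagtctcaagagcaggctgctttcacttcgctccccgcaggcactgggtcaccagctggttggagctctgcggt
Bcl2l11, chr2:128127325-128127624, plus strand: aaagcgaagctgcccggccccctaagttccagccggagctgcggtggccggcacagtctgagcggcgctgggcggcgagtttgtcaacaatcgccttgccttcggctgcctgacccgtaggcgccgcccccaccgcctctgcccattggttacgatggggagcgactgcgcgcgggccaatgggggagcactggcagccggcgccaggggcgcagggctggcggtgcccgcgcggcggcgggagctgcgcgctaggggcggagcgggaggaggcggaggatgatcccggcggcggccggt
Bcl2, chr1:106714241-106714540, minus strand: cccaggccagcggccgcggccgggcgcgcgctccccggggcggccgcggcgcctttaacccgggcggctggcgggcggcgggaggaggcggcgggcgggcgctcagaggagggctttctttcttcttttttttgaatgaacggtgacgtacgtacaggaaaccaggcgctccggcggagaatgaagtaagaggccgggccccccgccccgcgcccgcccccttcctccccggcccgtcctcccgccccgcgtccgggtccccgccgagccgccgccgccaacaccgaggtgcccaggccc
The Bnip3 window held 1 CACGTG, which is palindromic and contains ACGTG on both strands. The first Bcl2l11 window held 1 GTAAACA, and the second window of this gene and those of Bid and Bcl2 held none of the 5 motifs. Among 16 windows of the 10 members, ACGTG was found in 3 (Bax, Bmf and Bnip3), CACGTG in 2 (Bax and Bnip3), CATGTG in 1 (Bcl2l1), CTTTGA in 1 (Bax) and GTAAACA in 1. Over all 32851 windows of equal length, the shares were 19.6% for ACGTG, 7.15% for CACGTG, 14.2% for CATGTG, 16% for CTTTGA and 3.65% for GTAAACA. A match describes the letters of the window and does not show that a factor binds there.

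The lines differed most in Bnip3, followed by Bcl2l1, Bid, Bcl2 and Bcl2l11, while Mcl1, Bad, Bak1 and Bmf stayed within 2-fold. For each gene the brightest probe set, by its mean log2 value over the lines, is given first. Levels of different genes are not compared, since probe sets differ in their response. A difference is called 2-fold from values raised to the detection level of 32, and a fold that involves a dimmer value is given as at least that fold. By this measure 5 of 9 members differed at least 2-fold between their highest and lowest line, beside 40.1% of the 9415 detected genes. The median range of the members was 2.6-fold and that of all detected genes 1.79-fold.

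**Figure D1:**
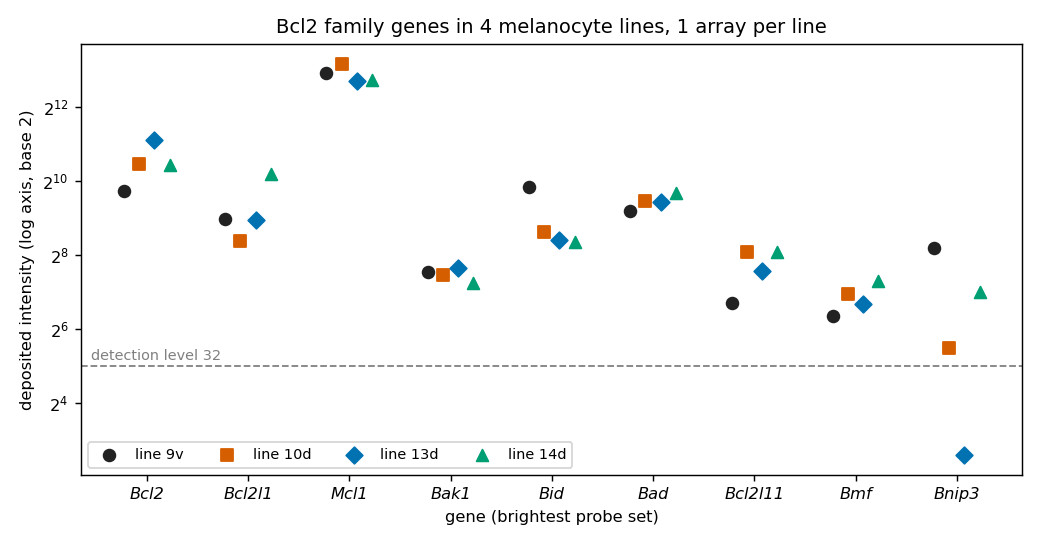
Deposited intensity (log axis, base 2) of the brightest probe set of each member in lines 9v, 10d, 13d and 14d, 1 array per line and therefore without error bars; the dashed line is the detection level of 32. Bnip3 spans from 6 to 290, and line 9v is the lowest for Bcl2 and Bcl2l11 and the highest for Bid and Bnip3.

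Among the antiapoptotic members, Bcl2, the founder of the family, had intensities of 845 in line 9v, 1419 in line 10d, 2220 in line 13d and 1393 in line 14d. Line 13d was the highest and line 9v the lowest, 2.63-fold apart, and lines 10d and 14d lay between them at nearly equal values. The same order of the extremes was seen in both other probe sets detected in all lines. One had 371 in 9v, 613 in 10d, 1005 in 13d and 730 in 14d, and the other had 95, 191, 406 and 232 in this order of lines. A further pair of Bcl2 probe sets passed the detection level in line 13d alone, at 44 and 57, and read from 5 to 9 in the other lines. Line 13d was thus the highest in all 5 Bcl2 probe sets.

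Bcl2l1 encodes Bcl-xL, a long-lived inhibitor of Bax and Bak1, and the shorter, proapoptotic Bcl-xS by alternative splicing. Its brightest probe set read 499 in line 9v, 331 in line 10d, 495 in line 13d and 1171 in line 14d. Line 14d lay above each of the other lines, by 2.35-fold over line 9v and by 3.54-fold over line 10d, while lines 9v and 13d were nearly equal. It was the 1 member with line 14d at least 2-fold above each of the others, as in 2.51% of detected genes. The 3 detected probe sets all had line 14d as the highest, with 95 and 63 in the dimmer pair beside 24 to 53 and 26 to 30 in the other lines. The remaining probe set read 4 in every line. Which splice form each probe set measures was not tested.

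Mcl1, a short-lived inhibitor with rapid protein turnover, differed little. Its intensities were 7741 in line 9v, 9262 in line 10d, 6685 in line 13d and 6858 in line 14d, a range of 1.39-fold. Line 10d was nevertheless the highest in all 6 Mcl1 probe sets, whose ranges lay between 1.34-fold and 1.58-fold. With 1 array per line, a difference of this size has no replicate check.

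Of the effectors of pore formation, Bak1 alone was measured. It read 186 in line 9v, 176 in line 10d, 201 in line 13d and 152 in line 14d, a range of 1.32-fold with no line set apart. Its second probe set read 5 in every line and was not detected.

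Among the BH3-only members, Bid, which is cleaved by caspase-8 and links death receptors to mitochondria, set line 9v apart. Intensities were 914 in line 9v, 396 in line 10d, 337 in line 13d and 327 in line 14d. Line 9v was 2.31-fold to 2.8-fold above the others, which lay within 1.21-fold of each other. The second detected probe set gave the same order, with 158 in line 9v, 33 in line 10d, 30 in line 13d and 25 in line 14d. Bid and Bnip3 were the 2 members in which line 9v exceeded each of the other lines by at least 2-fold, a pattern held by 1.63% of detected genes.

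Bcl2l11 encodes Bim, which binds all antiapoptotic members and is restrained by growth factor signalling through ERK. Its brightest probe set read 105 in line 9v, 272 in line 10d, 190 in line 13d and 273 in line 14d. Line 9v was the lowest, 1.81-fold below line 13d and 2.6-fold below line 14d, and lines 10d and 14d were nearly equal. The other detected probe sets had 17 in line 9v beside 114 to 198, and 40 in line 9v beside 97 to 112. A pair of undetected probe sets was also lowest in line 9v, at 10 and 5, so that all 5 Bcl2l11 probe sets had this line at the bottom. Line 9v was at least 1.5-fold below each of the other lines in Bcl2 and Bcl2l11 among the members, and in 2.57% of detected genes; this lower threshold was chosen after the values were seen.

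Bad, which is kept from Bcl2l1 by phosphorylation, had 583 in line 9v, 705 in line 10d, 697 in line 13d and 816 in line 14d. Its second probe set had 626, 695, 615 and 735 in the same order, and both stayed within 1.4-fold. Bmf, a BH3-only protein that is held at the actin cytoskeleton through a dynein light chain shared with myosin V, had 82 in line 9v, 123 in line 10d, 103 in line 13d and 156 in line 14d. Its range of 1.9-fold rests on 1 detected probe set of 3, and both others read 5 to 7. The suffix of the detected probe set marks shared sequence. Without such probe sets, or with probe sets averaged, Bmf was not detected.

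Bnip3 carries an atypical BH3 region, sits in the outer mitochondrial membrane, acts in mitophagy and is induced by hypoxia through HIF. Its single probe set read 290 in line 9v, 45 in line 10d, 6 in line 13d and 127 in line 14d. Line 9v was 2.28-fold above line 14d and 6.44-fold above line 10d, and at least 9.06-fold above line 13d, which lay under the detection level. The log2 range of 3.18 was wider than that of 96.1% of detected genes, with Bcl2l1 at 85.9%, Bid at 78.7%, Bcl2 at 75.9% and Bcl2l11 at 75.5%, and with Bak1 at the other end, at 15.5%. The genes whose pattern over the 4 lines came nearest to that of Bnip3, by the root mean square distance of centred log2 values among 9415 genes, were Itga9 (0.35), Klf12 (0.62) and Ghr (0.66). These distances used deposited values, not raised to the detection level. Bnip3 and all of these genes read under that level in line 13d, and Itga9 and Klf12 also in line 10d, so dim readings shape the match. Itga9, an integrin subunit, had 139 in line 9v, 20 in line 10d, 5 in line 13d and 75 in line 14d.

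**Figure D2:**
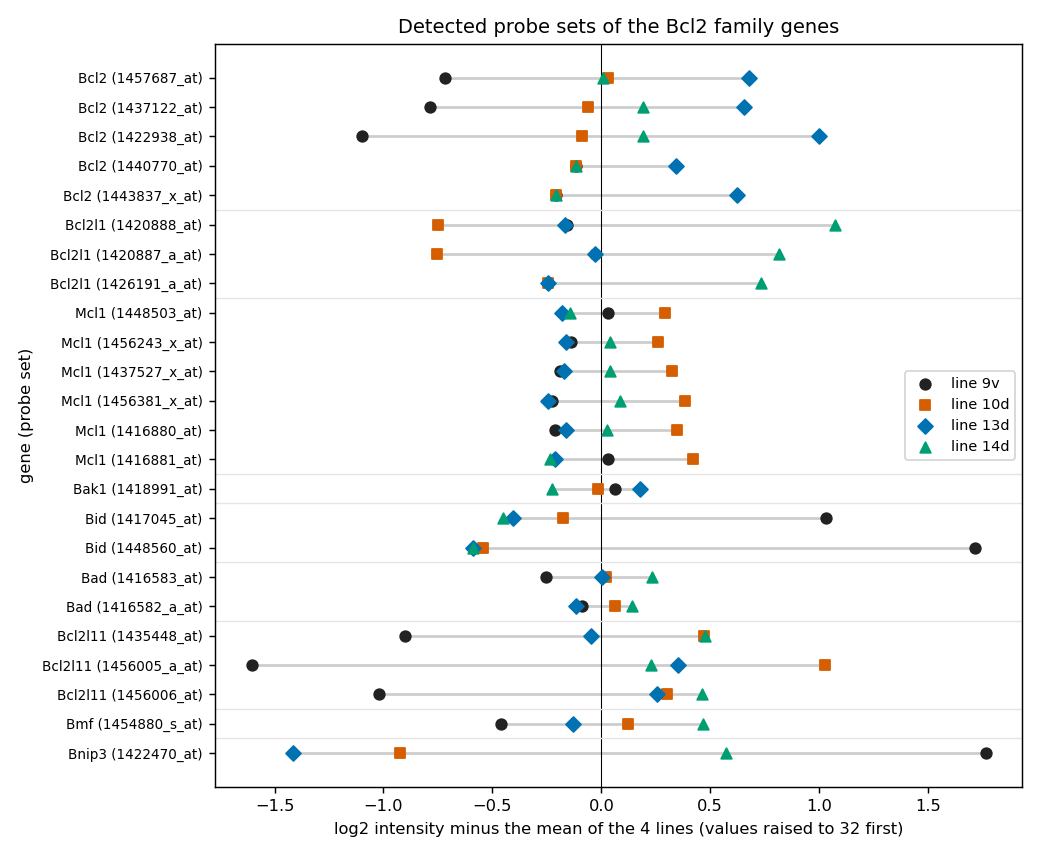
Log2 intensity of the 24 detected probe sets of the members, each minus its mean over the 4 lines, after values were raised to 32; symbols stand for lines and can overlap. Probe sets of a gene place the same line at the end of the range: 13d for Bcl2, 14d for Bcl2l1, 10d for Mcl1 and 9v for Bid and, at the low end, Bcl2l11.

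**Figure D3:**
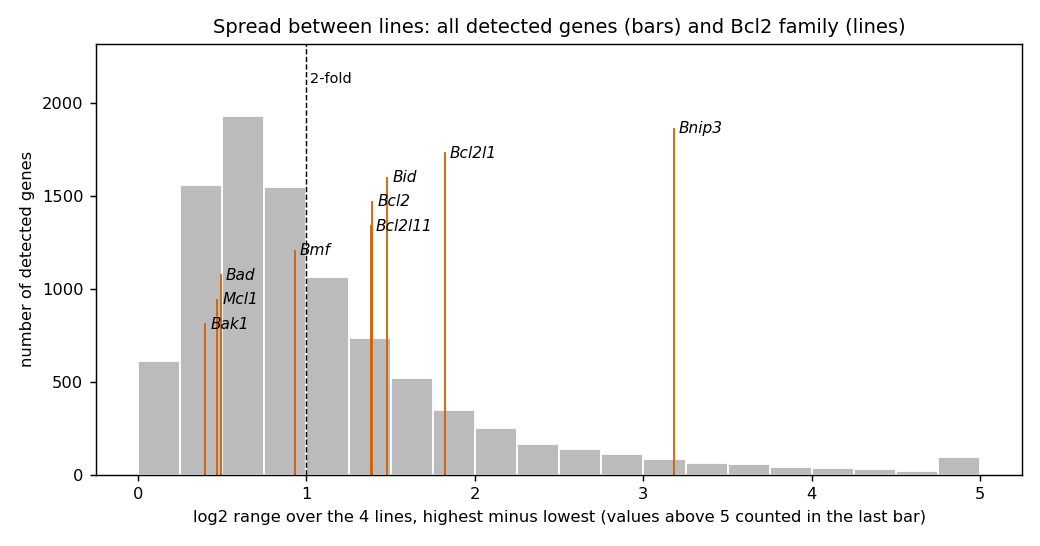
Number of detected genes (grey bars, linear axis) by their log2 range over the 4 lines, with values raised to 32, and the range of each member (orange lines, whose heights have no meaning). The dashed line marks 2-fold; 5 members lie to its right, with Bnip3 at 3.18.

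To compare bcat* with WT melanocytes where both sources give the same genotype, line 10d was set against line 9v. Bcl2l11 was the member at least 2-fold higher in bcat* (10d) cells, with a log2 difference of 1.37, beside 7.62% of all detected genes in this direction. Bid, with a log2 difference of -1.21, and Bnip3, with -2.69, were the 2 members at least 2-fold lower, beside 9.71% of all detected genes. The detected probe sets of Bcl2l11 had log2 differences from 1.32 to at least 2.63 and those of Bid from -2.26 to -1.21. Of the others, Bcl2 had a log2 difference of 0.75, Bcl2l1 of -0.59, Bmf of 0.58, Bad of 0.27, Mcl1 of 0.26 and Bak1 of -0.08. With the mean of all probe sets, undetected ones included, Bcl2l11 had a log2 difference of at least 0.91. Its mean in line 9v lay under the detection level and was raised to it, so a 2-fold difference is not excluded. With 1 array per line, no test was made.

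Seen over all pairs of lines, the differences at 2-fold lay mostly between line 9v and the rest. Lines 9v and 10d were 2-fold apart in 3 of 9 members (17.3% of detected genes). Lines 9v and 13d, both WT by the article, were 2-fold apart in 3 (12.7%). Lines 9v and 14d, both WT by the labels, were 2-fold apart in 4 (15%). Lines 10d and 13d, both bcat* by the labels, were 2-fold apart in 0 members (14.3%). Bnip3, at 45 in line 10d and 6 in line 13d, was at least 1.41-fold apart, so that a 2-fold difference is not excluded for it. Lines 10d and 14d, both bcat* by the article, were 2-fold apart in 2 members (23.3%), as were lines 13d and 14d (19.3%). The pairs share lines and are not independent.

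Over all 4 lines, no member passed limma's test between bcat* and WT cells under either reading, with Benjamini-Hochberg adjustment over 17423 probe sets. By the sample labels (10d and 13d over 9v and 14d), Bnip3 had a log2 difference of -3.55 ± 1.16 (SE, n = 2 lines each), a 95% confidence interval from -6.81 to -0.29 and a limma adjusted p of 0.656. Line 13d, at 6, lies under the detection level, and with values raised to that level, an alternative chosen after seeing the data, the difference was -2.34 ± 0.51 (limma adjusted p 0.54). Without line 13d it was -2.09 and without line 10d -5. It was the 1 member with an unadjusted limma p under 0.05, which held for 735 of 9415 genes (7.81%). Both lines labelled bcat*, at 45 and 6, lay below both lines labelled WT, at 290 and 127. Bcl2 followed with 0.71 ± 0.42 (interval -0.47 to 1.89, limma adjusted p 0.759), and both lines labelled bcat* lay above both labelled WT. Bcl2l1 had -0.92 ± 0.54 (interval -2.45 to 0.61, limma adjusted p 0.759), and both lines labelled bcat*, at 331 and 495, lay below both labelled WT, at 499 and 1171, although lines 13d and 9v were nearly equal. The groups did not overlap in these 3 members, beside 39.2% of detected genes. For the other members the groups overlapped, and log2 differences ranged from -0.58 for Bid to 0.43 for Bcl2l11.

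By the article (10d and 14d over 9v and 13d), Bcl2l11 had a log2 difference of 0.95 ± 0.39 (interval -0.18 to 2.07, limma adjusted p 0.969). Both bcat* lines, at 272 and 273, then lay above both WT lines, at 105 and 190. Bmf had 0.59 ± 0.29 (interval -0.25 to 1.43, limma adjusted p 0.969), with 123 and 156 in the bcat* lines above 82 and 103 in the WT lines. Bad, with 0.25 ± 0.27, and Bak1, with -0.24 ± 0.25, were the other members whose groups did not overlap, so that 4 of 9 did not, beside 31% of detected genes. The differences of Bnip3, Bcl2l1, Bak1 and Bmf had the opposite sign to those by the labels, with Bnip3 at 0.86 ± 2.14. Bcl2 kept its sign but had only 0.04 ± 0.56. No member had an unadjusted limma p under 0.05 in this reading, beside 314 of 9415 genes (3.34%). In neither reading did any of the 9415 genes pass after adjustment (0%), although without the filter on dim probe sets 32 genes were called higher and 251 lower by the labels, no member among them. The intervals leave room for changes of over 2-fold in most members, so that a missing call does not show equal levels.

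**Figure D4:**
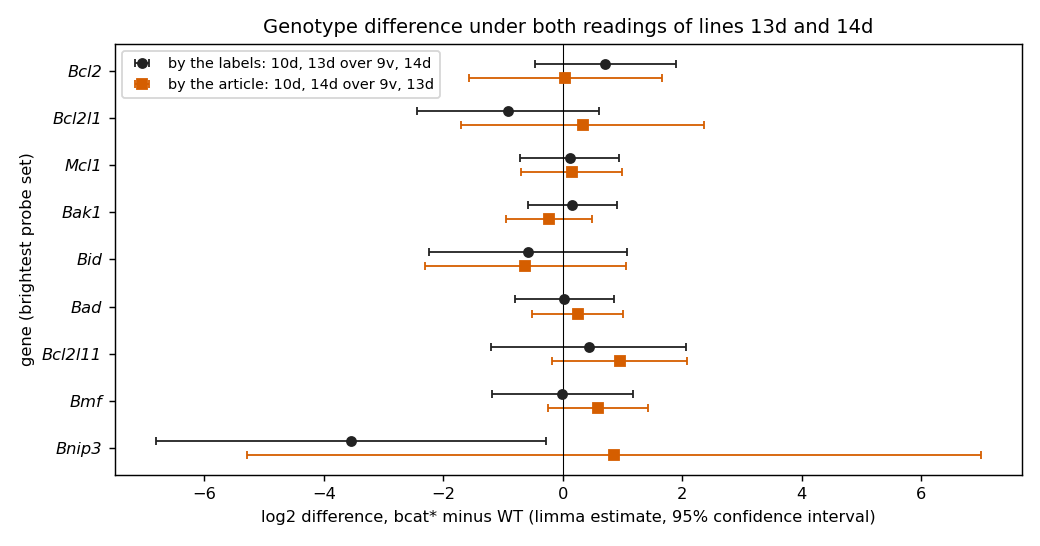
Log2 difference between bcat* and WT lines for the brightest probe set of each member (limma estimate with 95% confidence interval, 2 lines per genotype), by the sample labels (black circles) and by the article (orange squares). The interval of Bnip3 by the labels, from -6.81 to -0.29, is the one that does not reach 0, and its adjusted p was 0.656.

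Sex by the labels is balanced over genotype in both readings, so the differences were also taken within each sex. Between the male lines (10d minus 9v), Bcl2 had a log2 difference of 0.75, Bcl2l1 of -0.59 and Bnip3 of -2.69. Between the female lines as labelled (13d minus 14d), the values were 0.67 for Bcl2, -1.24 for Bcl2l1 and, against the detection level, -1.99 for Bnip3. These 3 members kept their sign in both sexes by the labels, and the other 6 did so by the article (14d minus 13d), among them Bcl2l11 with 0.52 and Bmf with 0.60. The readings differ here only in the direction of the female pair. Each member therefore keeps its sign either by the labels or by the article, by construction, and these counts favour neither reading. Bid, at -1.21 between the male lines, had -0.04 between the female lines in that direction.

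Of 17 other Bcl2 family genes, 12 were measured and 6 detected, and limma called 0 in either reading. Bbc3 (Puma), a BH3-only protein induced by p53, was the 1 gene at least 2-fold apart, with 64 in line 9v, 49 in line 10d, 25 in line 13d and 204 in line 14d. Line 14d, the highest in Bcl2l1, was thus also the highest in Bbc3. Pmaip1 (Noxa), which targets Mcl1, was detected in line 13d alone, at 56 beside 8 to 14. Bcl2l13, a mitochondrial family member, had a log2 range of 0.97, with 847 in line 9v and 433 to 611 in the others. With probe sets averaged, the range of Bcl2l13 was 1.03, over 2-fold. Bcl2l10, Bcl2l14, Bcl2l15, Bok, Hrk and Bik lay under the detection level in every line.

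Downstream of the mitochondria, all 9 measured genes of the apoptosome and caspases were detected, and 3 were at least 2-fold apart (33.3%). Casp9, the initiator caspase of the apoptosome, had 129 in line 9v, 73 in line 10d, 78 in line 13d and 30 in line 14d. Htra2, a mitochondrial protease, had 1673, 996, 1138 and 2354 in this order, and Casp6, an executioner caspase, 610, 498, 1029 and 736. With probe sets averaged and the means raised to the detection level, Casp9 and Casp6 had log2 ranges of 0.39 and 0.52, which can be lower bounds. Of the inhibitors of apoptosis, 3 of 6 detected genes were at least 2-fold apart, and Birc3 had 142 in line 13d beside 46 to 48 elsewhere. Cflar, which blocks caspase-8, had 2755 in line 13d and 1136 in line 14d, and Birc2 had 111 in line 13d and 249 in line 14d. Line 13d, the highest in Bcl2, was the highest in Birc3 and Cflar as well. It was also the highest in Casp6 and Casp8 and the lowest in Birc2, so it was not high in inhibitors alone. With probe sets averaged and raised in the same way, Birc3 and Cflar had log2 ranges of 0.07 and 0.93, which can be lower bounds. Among 5 detected death receptor genes 2 were at least 2-fold apart, with Casp8, the protease that cleaves Bid, at 1040 in line 9v, 616 in line 10d, 1404 in line 13d and 923 in line 14d. Tnfrsf21 ranged from 78 in line 13d to 205 in line 14d, but without probe sets whose suffix marks shared sequence its log2 range was 0.61, under 2-fold. Tradd had a log2 range of 0.84, and of 1.12, over 2-fold, without those probe sets. None of these genes passed limma's test after adjustment, and 0 were at least 2-fold apart between lines 10d and 9v.

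Genes induced by hypoxia were listed because Bnip3 is one of them. Of 11 detected, 7 were at least 2-fold apart (63.6%, beside 40.1% of all detected genes), with a median range of 2.43-fold. Line 9v was the highest in Pdk1, which limits the entry of pyruvate into mitochondria, with 1032 beside 230 in line 10d, 384 in line 13d and 244 in line 14d. Ndrg1, named after its values were seen, was also highest there, with 9023 beside 4034 to 4773. Others went differently: Adm, a vasodilator peptide, had 334 in line 14d and 5 to 7 elsewhere, and P4ha2, a collagen hydroxylase, had 122 in line 10d, 67 in line 13d, 59 in line 9v and 7 in line 14d. Also named after their values were seen, Slc2a1 had 780 in line 14d beside 2625 to 2933 elsewhere. Vegfa was highest in line 10d, at 348, and Ddit4 in line 14d, at 803. Pgk1, Ldha, Egln1 and P4ha1 stayed within 2-fold. Between lines 10d and 9v, 1 gene was at least 2-fold higher (P4ha2) and 2 were at least 2-fold lower (Pdk1 and Ndrg1). The median log2 difference of 0 is that of Adm, at 5 in both lines and so equal once raised to the detection level. It is therefore not compared with the median over all genes. Of p53 targets, 5 of 12 detected genes were at least 2-fold apart (41.7%). Eda2r, a receptor of the TNF family, had 274 in line 9v beside 24 to 85 in the others, and Sesn2, a stress-induced protein, ranged from 92 in line 13d to 512 in line 10d. With a detection level of 64, P4ha2 was under 2-fold, at a log2 range of 0.93. No gene of either list passed limma's test after adjustment.

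Of 15 regulators and partners of the family, 14 were measured and detected, and 4 were at least 2-fold apart (28.6%); they are named outside the rule for named genes, after their values were seen. Satb1, a chromatin organizer, had 270 in line 9v, 129 in line 10d, 188 in line 13d and 7 in line 14d. Dynlt3, a dynein light chain, had 11518 in line 9v, 4764 in line 10d, 4055 in line 13d and 11963 in line 14d, with both lines labelled bcat* below both labelled WT and a limma adjusted p of 0.448. Bag3, a co-chaperone that binds Bcl2, had 404, 363, 821 and 872 in this order of lines, and E2f1, a transcription factor of the cell cycle, 229, 145, 182 and 292. Between lines 10d and 9v, Satb1 and Dynlt3 were at least 2-fold lower, with log2 differences of -1.07 and -1.27, and 0 were at least 2-fold higher. Limma called 0 of the 14 in either reading, and 1 had an unadjusted p under 0.05 by the labels (Dynlt3).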

How the data were processed

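The authors deposited 1 intensity per probe set and array. GCRMA is the tool listed in the submitters' processing notes. Its version was not given in the sources used here, nor was any later step. That the scale is linear, rounded and not centred per gene was read from the values, and rounding makes ratios of dim probe sets coarse. Intensities were converted to log2. Of 45037 probe sets, 34945 had 1 gene in the platform annotation, 932 several and 9160 none listed, and those with several were left unnamed. The brightest probe set of a gene, on average over the 4 arrays, stood for it. Folds and ranges used values raised to an intensity of 32, whereas limma used the deposited values of the 17423 probe sets that reached 32 in at least 1 line. Groups were those of the labels, with 2 arrays each and 2 residual degrees of freedom, called at an adjusted p under 0.05. The number of arrays limits the precision. Members and gene lists were chosen with earlier results of these data known. From each other list except the regulators and partners, up to 3 detected genes with the largest log2 range were named, and for the member with the widest range the 3 genes nearest in pattern. The fit was tested on simulated data with small independent noise and large changes, which does not measure its power in these data. Alternatives were the article's genotypes, sex as a block, other normalizations, probe set rules, filters, detection levels and fold thresholds, and leaving out each array. R 4.3.3, limma 3.58.1, Python 3.11.15, pandas 2.3.3 and matplotlib 3.10.9 were used.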

Additional observations from a re-analysis of the deposited data

How the results depend on the processing

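The labels give no replicate numbers by which to pair arrays, and labelled sex was the pairing available. With labelled sex as a block, Bnip3 stayed at -3.55 ± 0.57 (limma adjusted p 0.565). No member was called under any of the alternatives run. Without a filter on dim probe sets, 32 genes were called higher and 251 lower by the labels, and 4 and 2 when probe sets were averaged per gene; the cause was not tested. Leaving out each array in turn gave 0 to 0 calls. None of the members' log2 differences was called in any fit. Bcl2 kept its sign under all alternatives run, although the article's reading gave only 0.04 ± 0.56. Bnip3 and Bcl2l1 kept theirs under all but that reading. It gave 0.33 for Bcl2l1, -0.24 for Bak1, 0.59 for Bmf and 0.86 for Bnip3. Leaving out 1 array gave -5 to -2.09 for Bnip3, 0.35 to 1.07 for Bcl2, -1.53 to -0.3 for Bcl2l1, -0.12 to 0.35 for Mcl1, -1.32 to 0.16 for Bid, -0.22 to 0.27 for Bad, -0.26 to 1.11 for Bcl2l11 and -0.47 to 0.46 for Bmf. Without line 9v, Bid was at 0.16 and Bcl2l11 at -0.26, and without line 10d Mcl1 was at -0.12. Averaging probe sets gave -0.01 for Bad. Median centring, which raises line 10d by 0.19 on the log2 scale, gave 0.09 for Bmf. Against line 9v, members at least 2-fold higher in line 10d numbered 0 when probe sets were averaged, 2 at 1.5-fold and 0 at 3-fold, and 1 was lower at 3-fold. The averaged value of Bcl2l11 in line 9v was raised to the detection level, so the count of 0 does not exclude a 2-fold difference for it. Over all genes, 1662 were higher and 1742 lower at 1.5-fold, and 266 and 407 at 3-fold. Between the extreme lines, 2 members were 3-fold apart, and 6555 genes were 1.5-fold and 1756 genes 3-fold apart. A threshold sets such counts by construction. The log2 range was 2.15 for Bcl2 and at least 1.19 for Bcl2l1 when probe sets were averaged. That of Bnip3 was 4.18 with a detection level of 16, 2.18 with 64 and 5.59 with deposited values, an alternative chosen after seeing the data, like the fit on values raised to the detection level, which gave Bnip3 -2.34. Signals near the detection level limit what Bnip3 in line 13d can show.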
